A study of Bubalus bubalis with 12 samples.

Results

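The ZNF zinc finger genes on this array were the 97 genes whose symbol is ZNF followed by digits and which had at least 2 probes, out of 6805 genes with a symbol and at least 2 probes. They were chosen by name and by no measured value, though with earlier results of these data known. A further 21 ZNF symbols had 1 probe each and were left out. Each gene's value on an array was the mean over its probes of the log2 ratio of immunoprecipitated (ChIP) over input DNA, with the array's median set to 0. A value of 0 is therefore the level of the middle probe of that array, and a negative value lies below it.

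The study compared 2 histone marks in frozen semen of water buffalo (Bubalus bubalis) bulls of contrasting fertility. The subfertile (SF) group was bulls SF1, SF4 and SF5, and the high-fertile (HF) group was bulls HF2, HF3 and HF5. Each bull gave 1 array for dimethylated lysine 4 of histone H3 (H3K4me2) and 1 for trimethylated lysine 27 (H3K27me3), 12 arrays in all. According to the labels, cross-linked chromatin was cut with micrococcal nuclease, and the recovered and input DNA were amplified through ligated linkers before labelling. The dyes were never swapped (Cy5 for ChIP DNA, Cy3 for input DNA), so a dye effect of a probe cannot be told apart from its enrichment. Bulls SF1 and HF5 shared a slide. The labels give neither the age of the bulls nor how their fertility was scored, and they name no breed. SF5 and HF5 are different bulls that share only a number.

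ZNF proteins hold arrays of zinc-binding fingers that read DNA, and they are the largest family of DNA-binding proteins in mammals. Many carry a KRAB domain, which recruits the corepressor TRIM28 and with it the methyltransferase SETDB1, HP1 proteins and a repressive mark on lysine 9 of histone H3, often over retrotransposons. Others carry a SCAN domain, through which they pair with each other, and the rest include regulators of development, promoter factors and RNA-binding proteins. Sperm replace most histones with protamines. Where nucleosomes stay, H3K4me2 is known from promoters of active or poised genes, and H3K27me3 from promoters that Polycomb complexes keep silent.

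Most ZNF probes lay in CpG islands, 1293 of 1494 (86.5%, against 90.6% of all probes), with 142 labelled promoter and 59 coding. All are 60 bases long and were placed on the cattle genome (Btau_3.1), whereas the DNA was buffalo DNA. The median G+C content was 51.7% in ZNF probes and 51.7% in all probes. A gene had between 2 and 93 probes, with a median of 10. Neighbouring probes overlapped in 86.4% of 1396 pairs, at a median step of 4 bases, so the probes of a gene are repeated readings of a few short stretches and not independent points. Of the genes, 15 rested on 2 probes and 50 on at least 10.

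Bovine chromosome 18 held 30 of the 96 members placed on 1 chromosome (31.2%), against 5.88% of all genes. Chromosome 25 held 11 (11.5%, against 3.78%) and chromosome 4 held 7. Within these chromosomes 7 clusters of at least 3 members lay with neighbours under 1 Mb apart. The largest, on chromosome 18, held ZNF526, ZNF575, ZNF576, ZNF428, ZNF404, ZNF45, ZNF180 and ZNF296.

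The probes behind the values described below are shown with every CG dinucleotide in capitals, since CG content is what placed most of them in islands. Each is written 5′ to 3′ as printed on the array. ZNF192 and ZNF35, with the widest separation between the groups, rest on the 2 probes given here, at chr23:30612110-30612203 and chr22:16868782-16868845 (Btau_3.1; strand not given). For the other genes the probe of middle rank is given, with probes ordered by start, and it can lie near an end of the tiled stretch. The ZNF192 probes share 26 bases and the ZNF35 probes 56.
ZNF192 first: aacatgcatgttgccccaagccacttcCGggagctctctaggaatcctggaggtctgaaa
ZNF192 second: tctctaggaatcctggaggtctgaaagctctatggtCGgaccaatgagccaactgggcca
ZNF35 first: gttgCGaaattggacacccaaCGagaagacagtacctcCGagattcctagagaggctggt
ZNF35 second: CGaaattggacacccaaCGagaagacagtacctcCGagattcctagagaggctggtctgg
ZNF438: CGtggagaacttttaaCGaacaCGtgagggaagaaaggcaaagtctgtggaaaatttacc
ZNF45: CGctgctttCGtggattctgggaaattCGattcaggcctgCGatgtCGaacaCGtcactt
ZNF677: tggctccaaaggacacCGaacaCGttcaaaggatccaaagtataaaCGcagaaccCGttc
ZNF821: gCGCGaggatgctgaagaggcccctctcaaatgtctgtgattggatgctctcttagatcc
ZNF8: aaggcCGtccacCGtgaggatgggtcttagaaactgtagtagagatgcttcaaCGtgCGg

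Fingers of different ZNF proteins are joined by a conserved linker, so probes in finger-coding sequence can resemble several genes. The linker's codons were searched on both strands as ACNGGNGANAANCCN, that is 5 codons with any last base. Among ZNF probes 6 held it (0.402%), in ZNF205, ZNF274 and ZNF331, against 48 of all probes (0.0271%) in 16 genes. The first such probe of each gene is shown with the motif in capitals; that of ZNF331 reads on the opposite strand.
ZNF205: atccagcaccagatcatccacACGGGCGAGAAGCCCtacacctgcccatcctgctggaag
ZNF274: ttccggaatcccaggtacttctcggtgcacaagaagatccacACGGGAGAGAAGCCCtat
ZNF331: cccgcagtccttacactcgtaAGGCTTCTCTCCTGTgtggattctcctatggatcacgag
Over these 3 genes the median H3K4me2 ratio of the probes with the linker was 0.30, -0.05 and 0.85 in SF1, SF4 and SF5, against 0.17, 0.06 and 0.43 in HF2, HF3 and HF5, so the groups overlapped.

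On every array the input signal was well above background for 97.1% to 99.9% of probes and the ChIP signal for 93.9% to 99.98%. No ZNF gene was without an above-background spot in any group or colour. Members with some ChIP spots not well above background numbered 34 in HF and 23 in SF bulls for H3K4me2, and 17 and 7 for H3K27me3. In the input such members numbered 14 in HF and 5 in SF bulls on the H3K4me2 arrays, and 18 and 5 on the H3K27me3 arrays. The H3K4me2 ratios of HF5 and SF5 and the H3K27me3 ratio of HF5 rose with probe G+C by 0.73, 0.67 and 0.56 log2 units per 10 percentage points, against -0.24 to 0.22 on the other arrays. Of 10 sperm markers 4 were on the array with at least 2 probes. Their H3K4me2 difference, SF minus HF, was above 0 in 4 of 4 (51.8% of all genes), with a median of 0.88 (0.02 for all genes). Their median H3K27me3 difference was 0.26. Their input, the denominator of these ratios, went the other way, with a median difference of -0.46 and 3 of 4 below 0. Of 7 leukocyte, 6 epithelial and 8 somatic testis markers 3, 5 and 1 were measured. Their median H3K4me2 differences were 0.34, -0.01 and 1.49, the last being the value of 1 gene. A ChIP ratio does not give the amount of a cell type, and the part of the cells' makeup in the ZNF values was not tested.

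The comparison of subfertile with high-fertile bulls asked which genes differ in either mark. In H3K4me2 the ZNF genes were spread around 0 with no shared direction. Their median difference, SF minus HF, was -0.01 log2 units, against 0.02 for all genes, and 48 of 97 were above 0, against 51.8% of all genes. ZNF192, ZNF35, ZNF677 and ZNF599 were lower in each SF bull than in any HF bull (3.48% of all genes), and ZNF438, ZNF444 and ZNF45 were higher (3.1% of all genes). Those 7 of 97 (7.22%) compare with 6.58% of all genes, so groups that do not overlap were about as frequent among ZNF genes as on the whole array.

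For H3K27me3 the median ZNF difference was -0.10, against -0.01 for all genes, and 42 of 97 were above 0, against 49.3% of all genes. ZNF192, ZNF821, ZNF428 and ZNF521 were lower in each SF bull than in any HF bull (4.56% of all genes), and ZNF45 was higher (4.01% of all genes). These are 5 of 97 (5.15%), against 8.57% of all genes. No ZNF gene passed the test across all genes in either mark (limma's moderated test with Benjamini-Hochberg adjustment over 6805 genes, two-sided, threshold 0.05; 0% of all genes passed). At an unadjusted p under 0.05 there were 4 ZNF genes for H3K4me2 (2.91% of all genes) and 2 for H3K27me3 (4.07% of all genes). The lowest adjusted p among ZNF genes was 1.00 in both marks. The 95% interval of a ZNF gene had a median half-width of 1.20 log2 units in H3K4me2 and 1.13 in H3K27me3, which is the precision that 3 bulls per group gave.

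**Figure D1:**
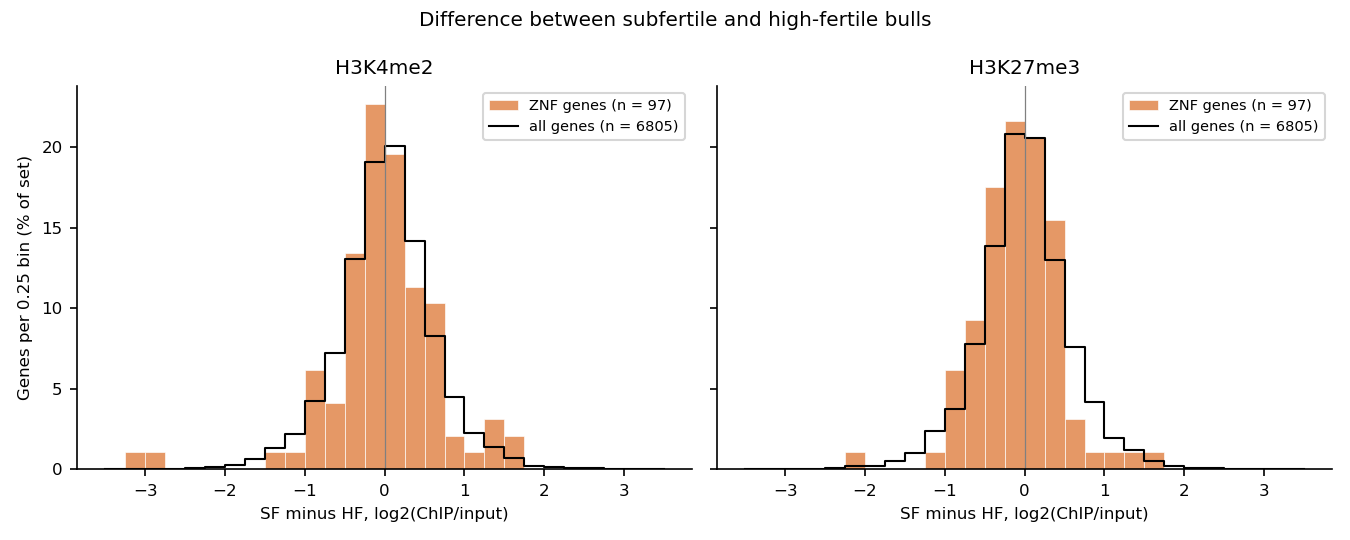
Share of ZNF genes (bars) and of all genes (line) per bin of the difference between subfertile and high-fertile bulls, in log2 units, for H3K4me2 (left) and H3K27me3 (right). Both sets centre near 0; the ZNF bars at the far left are ZNF35 (-3.14) and ZNF192 (-2.89) for H3K4me2 and ZNF192 (-2.16) for H3K27me3.

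ZNF192, also named ZKSCAN8 and carrying both a SCAN and a KRAB domain, had the smallest unadjusted p of the family in both marks. Its H3K4me2 ratio was -1.17, -2.57 and -1.40 in SF1, SF4 and SF5, against 0.67, 1.96 and 0.91 in HF2, HF3 and HF5. Its H3K27me3 ratio was -2.43, -1.79 and -1.54 in the SF bulls, against 0.68, 0.87 and -0.84 in the HF bulls. All SF bulls lay below all HF bulls in both marks. The difference was -2.89 (95% interval -4.15 to -1.63; limma unadjusted p = 0.00063, adjusted p = 1.00) for H3K4me2 and -2.16 (-3.40 to -0.92; unadjusted p = 0.00374, adjusted p = 1.00) for H3K27me3.

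The input signal of ZNF192 moved the other way. Its log2 input, the mean of both arrays of a bull with the array median at 0, was 0.98, 0.64 and -0.31 in the SF bulls, against -0.48, -1.41 and -0.81 in the HF bulls. The groups did not overlap there either, and the input difference was 1.34 (limma unadjusted p = 0.0114, adjusted p = 1.00). In the ChIP signal alone, without division by the input, the differences were -1.56 for H3K4me2 and -0.85 for H3K27me3, smaller than in the ratio. What part of the difference in the ratio comes with the input was not tested further.

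ZNF35, whose mouse counterpart Zfp35 is transcribed in meiotic spermatocytes, had the widest H3K4me2 difference of the family. Its H3K4me2 ratio was -0.63, -0.24 and -2.00 in SF1, SF4 and SF5, against 0.67, 2.37 and 3.50 in HF2, HF3 and HF5. Its H3K27me3 ratio was -0.92, 1.19 and 1.02 in the SF bulls, against 0.20, 2.46 and -0.66 in the HF bulls. The groups were apart in H3K4me2 (difference -3.14, interval -4.89 to -1.39, limma unadjusted p = 0.00302, adjusted p = 1.00) and overlapped in H3K27me3 (difference -0.24, interval -2.24 to 1.76). The test of whether the fertility difference itself differs between the marks gave -2.90 (limma unadjusted p = 0.0438, adjusted p = 1.00). No gene passed that test (0% of all genes), and ZNF35 was the 1 ZNF gene with an unadjusted p under 0.05, against 0.661% of all genes. With the bull as a block, which pairs the marks of an animal, ZNF35, ZNF438 and ZNF555 had one (3 of 97, against 3.94% of all genes), and 0 passed after adjustment. The difference between the marks was apart between SF and HF bulls in 8 of 97 ZNF genes (8.25%, against 9.32% of all genes). The log2 input of ZNF35 was 0.28, -1.13 and 0.12 in the SF bulls, against -0.17, -2.39 and -1.50 in the HF bulls. These inputs overlapped, and the H3K4me2 difference in the ChIP signal alone was -2.04.

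ZNF438, a gene with 25 probes at chr13:34142800-34146314, went the other way. Its H3K4me2 ratio was 1.19, 0.76 and 0.71 in SF1, SF4 and SF5, against 0.23, -0.45 and -1.04 in HF2, HF3 and HF5. Every SF bull was above every HF bull (difference 1.31, interval 0.24 to 2.38, limma unadjusted p = 0.0223, adjusted p = 1.00). Its H3K27me3 ratio was 0.91, -1.00 and 1.40 in the SF bulls, against 1.93, 0.40 and -0.32 in the HF bulls, and overlapped. In the ChIP signal alone its H3K4me2 difference was 0.71. ZNF444, a SCAN-domain protein, had H3K4me2 ratios of 0.40, 0.43 and 0.71 in the SF bulls, against 0.05, -0.86 and -0.09 in the HF bulls (difference 0.81, and 0.24 in the ChIP signal alone). Its H3K27me3 groups also overlapped, at a difference of -0.10. ZNF432, a KRAB gene named here after its values were seen because it was the fourth H3K4me2 gene under 0.05, had -1.18, 0.09 and -1.18 in the SF bulls, against 0.03, 1.38 and 0.62 in the HF bulls. SF4 lay above HF2, so its groups overlapped (difference -1.43, limma unadjusted p = 0.0294, adjusted p = 1.00).

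ZNF45, a KRAB gene with 20 probes at chr18:51828725-51829023, was higher in SF bulls in both marks. Its H3K4me2 ratio was 0.37, 0.67 and 0.45 in SF1, SF4 and SF5, against -0.50, -0.59 and 0.17 in HF2, HF3 and HF5. Its H3K27me3 ratio was 0.05, -0.39 and -0.33 in the SF bulls, against -0.67, -0.51 and -0.72 in the HF bulls. The groups were apart in both, at differences of 0.80 and 0.41. The log2 input was -0.36, -0.61 and -0.18 in the SF bulls, against 0.13, 0.20 and -0.15 in the HF bulls, apart in the opposite direction (difference -0.45). In the ChIP signal alone the H3K4me2 difference was 0.34 and the H3K27me3 difference -0.05, so the H3K27me3 direction is lost without the input.

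ZNF677 and ZNF599 are KRAB genes whose H3K4me2 ratio was lower in SF bulls. ZNF677, with 42 probes, had -0.18, 0.39 and -0.13 in SF1, SF4 and SF5, against 0.75, 0.79 and 0.81 in HF2, HF3 and HF5, a difference of -0.75. The HF bulls lay between 0.75 and 0.81 and every SF bull below them. Its log2 input was 0.07, -0.44 and -0.74 in the SF bulls, against -1.07, -1.20 and -1.16 in the HF bulls, and the ChIP signal alone differed by 0.01. The ZNF677 difference in H3K4me2 is therefore present in the ratio and close to 0 in the ChIP signal alone. ZNF599, with 5 probes, had H3K4me2 ratios of -0.15, -0.49 and -0.22 in the SF bulls, against 0.39, 0.28 and 0.17 in the HF bulls. Its difference was -0.56 in the ratio and -0.56 in the ChIP signal alone, with an input difference of -0.01.

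**Figure D2:**
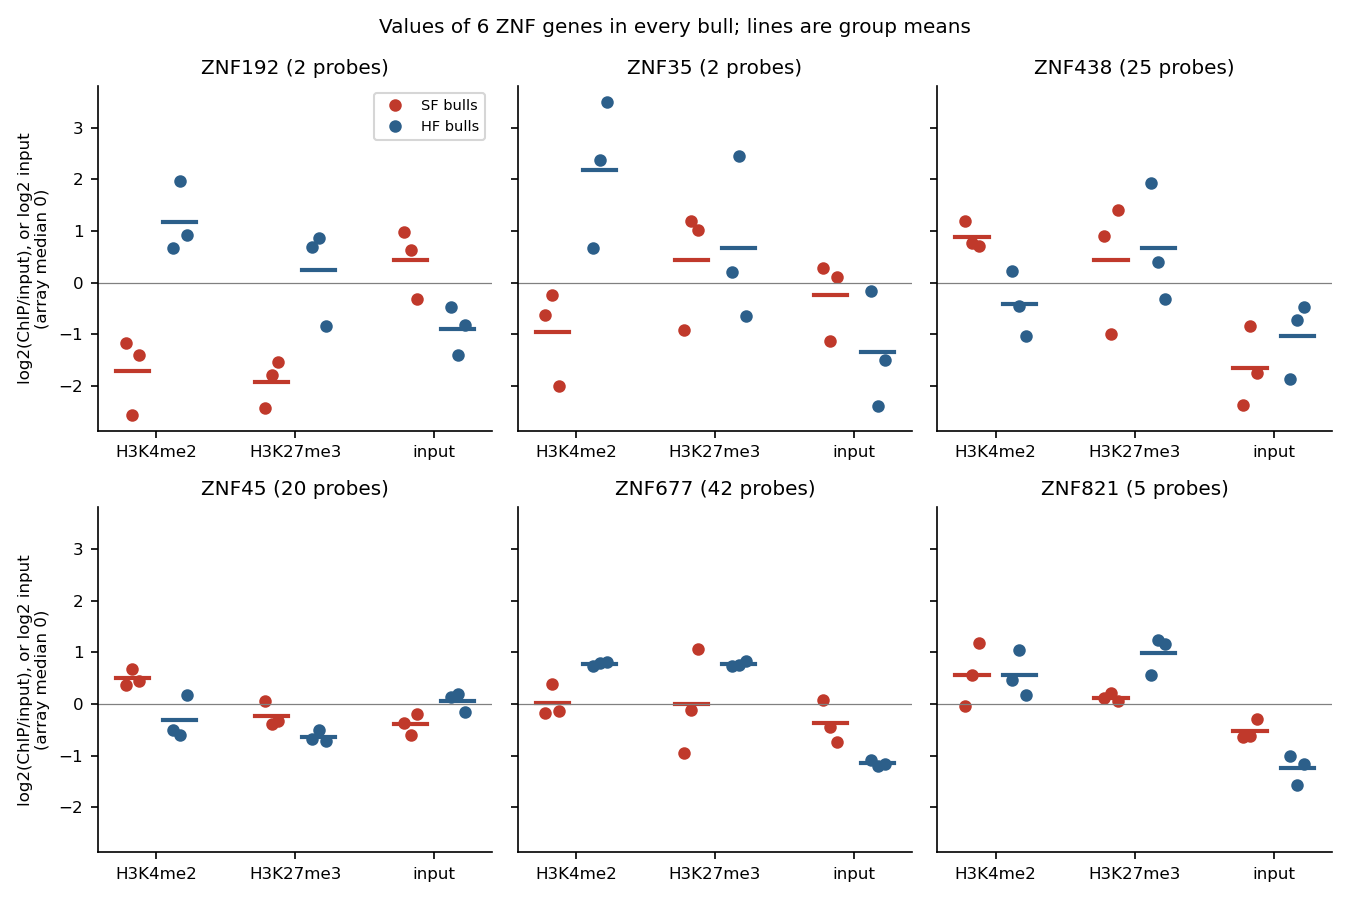
Log2(ChIP/input) for H3K4me2 and H3K27me3, and log2 input, of 6 ZNF genes in each subfertile (red) and high-fertile (blue) bull; short lines are means of 3 bulls. ZNF192 is apart in both ratios and, reversed, in the input, which is the denominator of the ratios. ZNF35 and ZNF438 are apart in H3K4me2 and overlap in the input. ZNF45, ZNF677 and ZNF821 have inputs that are also apart.

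Among the genes lower in H3K27me3, ZNF821 had ratios of 0.11, 0.21 and 0.05 in SF1, SF4 and SF5, against 0.56, 1.23 and 1.16 in HF2, HF3 and HF5. The difference was -0.86 (limma unadjusted p = 0.0486, adjusted p = 1.00), while its H3K4me2 difference was 0.01. Its log2 input was -0.65, -0.62 and -0.29 in the SF bulls, against -1.00, -1.56 and -1.15 in the HF bulls. The input groups were apart, and the H3K27me3 difference in the ChIP signal alone was -0.18. ZNF428, with 17 probes, had H3K27me3 ratios of -0.16, 0.17 and -0.08 in the SF bulls, against 0.71, 0.47 and 1.14 in the HF bulls. It differed by -0.80 in the ratio and by -0.47 in the ChIP signal alone, and its input was higher in every SF bull (difference 0.37). ZNF521, a coregulator of blood and neural differentiation, differed by -0.27 in the ratio and by -0.08 in the ChIP signal alone.

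The input alone separated the groups for 9 of 97 ZNF genes, against 7.77% of all genes. It was higher in SF bulls for ZNF192, ZNF277, ZNF420, ZNF428, ZNF554, ZNF575, ZNF677 and ZNF821 (4.6% of all genes), and lower for ZNF45 (3.17%). None passed the test across all genes (0% of all genes; limma adjusted), and 5 had an unadjusted p under 0.05 (3.54% of all genes). ZNF420, a KRAB protein known in human cells as a regulator of p53, had log2 inputs of 1.21, 0.04 and 0.54 in SF1, SF4 and SF5, against 0.00, -0.55 and -0.25 in HF2, HF3 and HF5. Its mark ratios overlapped between the groups. Of the 10 genes apart in at least 1 mark, ZNF192, ZNF45, ZNF428, ZNF677 and ZNF821 were also apart in the input, each in the direction opposite to the ratio. The input is the denominator of the ratio, so an input difference by itself turns the ratio the opposite way. This opposition is therefore no separate evidence, and its share over all genes was not counted.

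The domain classes, assigned from general knowledge of the human proteins, showed no common direction. No gene was counted in more than a single class, although a SCAN gene can also carry a KRAB domain. ZNF192, which carries both domains, was counted under SCAN and is not among the 36 KRAB genes. How many other SCAN genes also carry a KRAB domain was not counted. The medians of these classes are therefore no clean contrast of KRAB with SCAN domains. The 36 KRAB genes had a median H3K4me2 difference of 0.02, with 19 above 0, and a median H3K27me3 difference of 0.01, with 18 above 0. The 9 SCAN genes had medians of -0.13 and -0.10, with 4 and 3 above 0. The 52 other members had medians of -0.01 and -0.12, with 25 and 21 above 0. For all genes these medians were 0.02 and -0.01. The median KRAB gene had an H3K4me2 ratio of 0.04, 0.07 and 0.13 in SF1, SF4 and SF5, against 0.05, 0.43 and -0.28 in HF2, HF3 and HF5, so the HF bulls spread around all SF bulls.

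**Figure D3:**
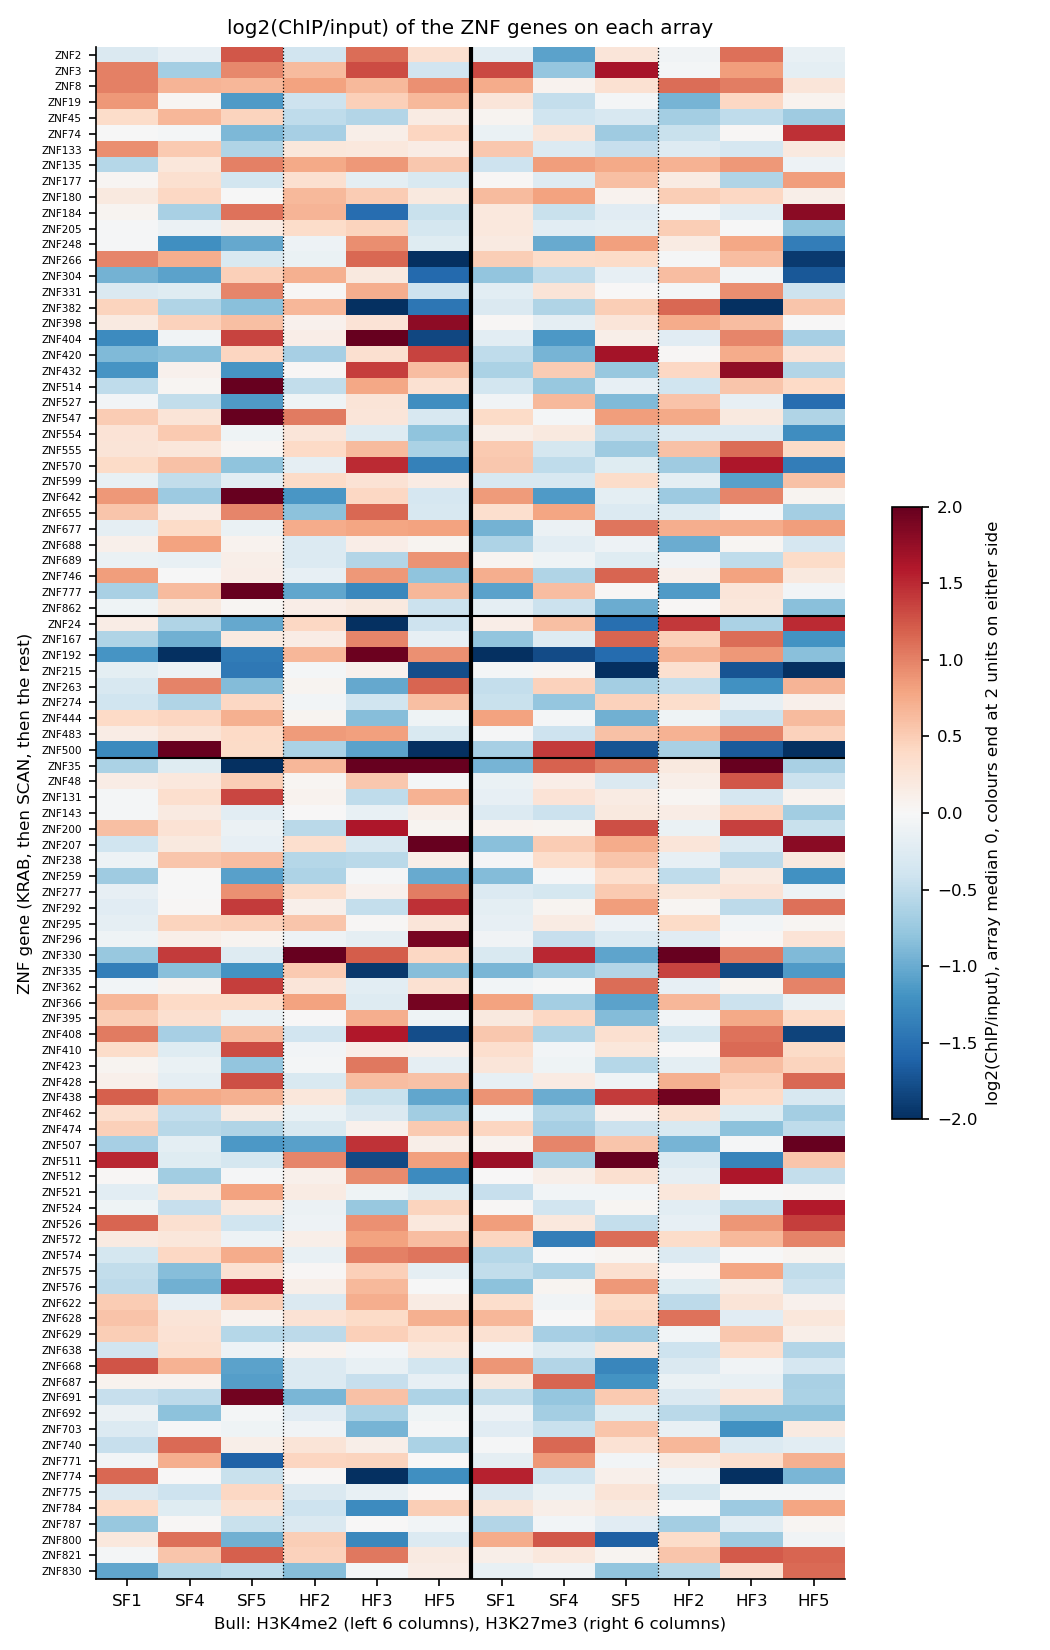
Log2(ChIP/input) of the 97 ZNF genes (rows: KRAB, SCAN and other members, divided by lines) on the 12 arrays, H3K4me2 left and H3K27me3 right, subfertile bulls left of high-fertile bulls within a mark. Columns of 1 bull resemble each other across the marks, and few rows change colour at the dotted line between the groups.

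Several members have a known role in chromatin or at promoters. ZNF143, a promoter-binding activator, had H3K4me2 ratios of -0.04, 0.18 and -0.21 in SF1, SF4 and SF5, against 0.01, -0.15 and 0.09 in HF2, HF3 and HF5. ZNF274, which recruits SETDB1 to other ZNF genes in human cells, had -0.40, -0.60 and 0.42 in the SF bulls, against -0.05, -0.40 and 0.61 in the HF bulls. ZNF335, a component of complexes that methylate lysine 4 of histone H3, was the lowest of the family in mean H3K4me2. It had -1.37, -0.83 and -1.20 in the SF bulls, against 0.53, -1.93 and -0.86 in the HF bulls, so HF2 alone was above the array median. Its H3K27me3 ratio was -0.92, -0.72 and -0.59 in the SF bulls, against 1.35, -1.81 and -1.14 in the HF bulls, with HF2 again apart from the rest.

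ZNF331, imprinted in human tissues, had H3K4me2 ratios of -0.28, -0.24 and 0.97 in SF1, SF4 and SF5, against 0.03, 0.73 and -0.42 in HF2, HF3 and HF5. ZNF207, which loads the checkpoint protein BUB3 at kinetochores, had -0.39, 0.20 and -0.17 in the SF bulls, against 0.34, -0.33 and 2.35 in the HF bulls. ZNF622, a ribosome assembly factor, had 0.51, -0.16 and 0.48 in the SF bulls, against -0.28, 0.73 and 0.16 in the HF bulls. In each of these 3 genes the groups overlapped, and the difference came to 0.04, -0.91 and 0.08. In ZNF207 the value of HF5 stood apart from those of the other 5 bulls.

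The genes that work with KRAB zinc fingers were taken from a list of 32, of which 12 were measured. None rose and none fell in the test across all genes (limma adjusted, 0% of all genes). Of their differences 7 of 12 were above 0 in H3K4me2 (51.8% of all genes) and 4 of 12 in H3K27me3 (49.3% of all genes). CBX1, an HP1 protein that binds methylated lysine 9, was lower in every SF bull than in any HF bull in H3K4me2 (3.48% of all genes). It was the 1 partner of 12 whose H3K4me2 groups were apart, and it is given for its smallest p. Its ratio was -1.12, -1.71 and -1.50 in SF1, SF4 and SF5, against 0.26, 1.76 and -0.63 in HF2, HF3 and HF5 (difference -1.91, limma unadjusted p = 0.0144, adjusted p = 1.00). UHRF1, which couples DNA methylation to lysine 9 methylation and had 3 probes, had an H3K4me2 difference of -1.72 with overlapping groups. For H3K27me3 the partners of smallest p were CHD4 (difference -1.13, 2 probes) and UHRF1 (-1.15), both with overlapping groups.

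The comparison of the marks asked which genes hold more of one mark than of the other in the same bulls. The median ZNF gene had 0.04 log2 units more H3K4me2 than H3K27me3, against 0.06 for all genes, and 56 of 97 were above 0, against 59.8% of all genes. Of the members 4 had a higher H3K4me2 ratio in all 6 bulls (2.44% of all genes) and 0 a lower one (1.1% of all genes), 4.12% together against 3.54% of all genes. They were ZNF688, ZNF547 and ZNF554, all KRAB genes, at 0.52, 0.40 and 0.31, and ZNF574 at 0.58, which has probes on more than 1 chromosome and is named here after its values were seen. ZNF688, with 83 probes, had H3K4me2 ratios of 0.10, 0.81 and 0.06 in the SF bulls and -0.27, 0.13 and 0.05 in the HF bulls. Its H3K27me3 ratios were -0.62, -0.21 and -0.11 in the SF bulls and -0.99, 0.03 and -0.33 in the HF bulls. No gene passed the test between the marks (0% of all genes; limma adjusted), and 1 ZNF gene, ZNF45, had an unadjusted p under 0.05 (0.602% of all genes), at a difference of 0.52. With the bull as a block 5 ZNF genes had one, ZNF45, ZNF574, ZNF688, ZNF366 (0.79) and ZNF24 (-0.84), against 4.1% of all genes, and again 0 passed after adjustment (lowest adjusted p among them 0.943).

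Values were more alike between the marks of a bull than between bulls. Across the 97 genes the H3K4me2 and H3K27me3 ratios of a bull correlated at r = 0.83, 0.54 and 0.32 in SF1, SF4 and SF5, and at 0.72, 0.82 and 0.48 in HF2, HF3 and HF5. Between different bulls the median r was 0.020 for H3K4me2 and -0.0011 for H3K27me3, with no pair above 0.18 and 0.21. These correlations run across genes, which do not count as replicates, and both arrays of a bull carried input DNA of that bull and lay on 1 slide. For all genes the same-bull values ran from 0.25 in SF5 to 0.86 in SF1.

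**Figure D4:**
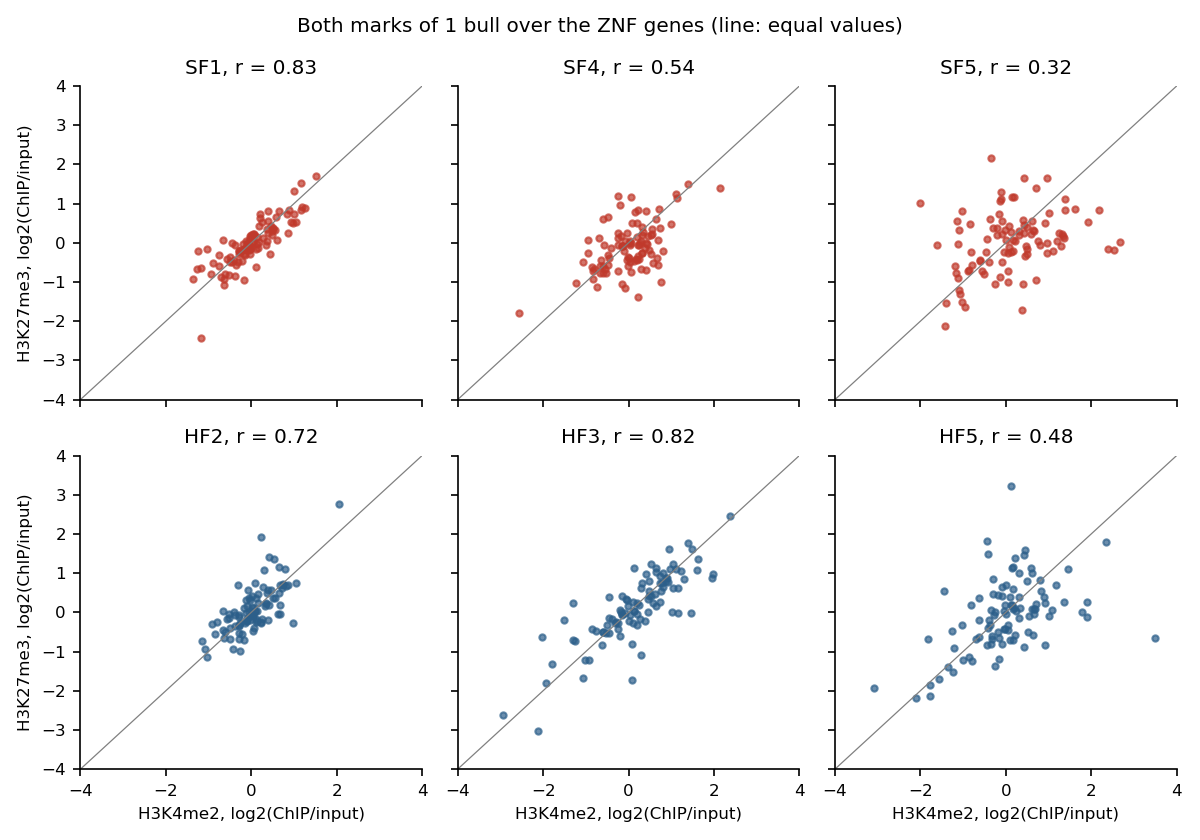
H3K4me2 (horizontal) against H3K27me3 (vertical) log2(ChIP/input) of the 97 ZNF genes in each subfertile (red, top) and high-fertile (blue, bottom) bull; the line marks equal values. Points follow the line most closely in SF1 and HF3 and least in SF5.

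Few ZNF genes kept 1 side of the array median in all bulls. For H3K4me2 they were 6 of 97 (6.19%, against 3.59% of all genes), with ZNF8, ZNF398 and ZNF628 above (2.01% of all genes) and ZNF259, ZNF692 and ZNF703 below (1.57%). For H3K27me3 they were 4 of 97 (4.12%, against 3.51%), with ZNF8, ZNF180 and ZNF821 above (1.63% of all genes) and ZNF692 below (1.88%). ZNF8, a KRAB gene, was highest in H3K4me2 at a mean of 0.79. Its ratios were 1.01, 0.69 and 0.67 in SF1, SF4 and SF5 and 0.80, 0.65 and 0.91 in HF2, HF3 and HF5, so all 6 lay between 0.65 and 1.01. The probes of ZNF8 were dim in the input, at -1.73, -1.12 and -1.52 in the SF bulls and -1.47, -2.05 and -1.28 in the HF bulls, and its ChIP signal alone lay at -0.70, below the array median. No ZNF gene passed the test of the mean against 0 in either mark (0% of all genes; limma adjusted). The adjusted p of ZNF8 was 0.933 for H3K4me2, and 4 ZNF genes had an unadjusted p under 0.05 (4.44% of all genes), against 7 for H3K27me3 (5.29% of all genes).

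After ZNF8, the highest H3K4me2 means were those of the nucleolar protein gene ZNF330 (0.68), ZNF547 (0.65), ZNF366 (0.65) and ZNF35 (0.61). The lowest were ZNF335 (-0.94), ZNF382 (-0.65), ZNF24 (-0.59), ZNF259 (-0.57) and ZNF215 (-0.57). For H3K27me3 the highest means were those of ZNF507 (0.64), ZNF8 (0.58), ZNF821 (0.56), ZNF438 (0.55) and ZNF35 (0.55), and the lowest those of ZNF215 (-0.95), ZNF500 (-0.92), ZNF192 (-0.84), ZNF335 (-0.64) and ZNF692 (-0.53). In the ChIP signal alone ZNF8, ZNF330 and ZNF35 lay below the array median for H3K4me2 and ZNF382 above it, and for H3K27me3 ZNF8, ZNF821, ZNF438 and ZNF35 lay below it, so the directions of these levels turn without the input. Several ranks also rested on single bulls. ZNF507 had an H3K27me3 ratio of 3.23 in HF5, and its mean without that bull, taken as the average of the SF and HF means as for the other values here, was 0.03. Without HF5 the H3K4me2 means of ZNF35, ZNF366 and ZNF215 were 0.28, 0.38 and -0.27, and without HF3 those of ZNF24 and ZNF382 were -0.25 and -0.36. The H3K4me2 mean of ZNF547 was 0.35 without SF5, that of ZNF330 was 0.36 without SF4, and the H3K27me3 mean of ZNF35 was 0.10 without HF3. The H3K4me2 mean of ZNF8 stayed between 0.73 and 0.82 whichever bull was left out. The H3K27me3 mean of ZNF192 joins groups that were apart, at -1.92 in SF bulls and 0.24 in HF bulls. ZNF692 was the 1 member below the array median in all bulls in both marks, and ZNF8 the 1 above. ZNF259 encodes ZPR1, a zinc finger protein that moves between cytoplasm and nucleus.

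Values also varied along a gene. SDs were taken over the 50 members with at least 10 probes. Between single probes of a gene on 1 array the median SD was 0.78 for H3K4me2 and 0.72 for H3K27me3. The median SDs between bulls were 0.52 and 0.58, but these are SDs of gene means. Averaging over probes narrows them, so these measures are unlike and do not rank probes against bulls. When probes more than 500 bases apart were split into segments, 55 members had more than 1, and in 34 of them the H3K4me2 difference took both signs (35 for H3K27me3). The gene means above therefore join segments whose differences do not always share a sign. Whether the segments of a gene truly differ was not tested, and the share of mixed signs over all genes was not counted. Some segments hold 1 probe, and some probe positions are wide ranges, so that in ZNF133 a segment encloses the other. The segments named next were picked for their values and are described without a test.

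ZNF238, a BTB-domain repressor of neural and muscle development, had a 3-probe segment at chr16:30475622-30475686 with H3K4me2 ratios of 2.00, 1.85 and 1.42 in SF1, SF4 and SF5, against -1.79, -1.81 and 0.35 in HF2, HF3 and HF5. The groups were apart there by 2.84. H3K27me3 in that segment was 2.69, 1.99 and 0.08 in the SF bulls, against -0.56, -2.26 and 0.39 in the HF bulls. It moved the same way, overlapping at a difference of 2.39. The other ZNF238 segment, of 14 probes near the promoter, had an H3K4me2 difference of 0.22, and the gene as a whole overlapped between the groups. ZNF423, a relative of ZNF521 that also works with EBF factors, had a 14-probe island at chr18:17065962-17066075. There H3K4me2 was -0.76, -1.20 and -1.89 in the SF bulls, against 0.10, 2.71 and -0.99 in the HF bulls, overlapping at a difference of -1.89. Its largest segment, of 26 probes, had a difference of 0.01.

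ZNF521 was covered by 84 probes in 7 segments. The segment of 44 probes at chr24:32627745-32628513 had H3K4me2 ratios of -0.75, 0.23 and 0.99 in SF1, SF4 and SF5, against 0.36, -0.13 and -0.38 in HF2, HF3 and HF5. The groups overlapped at a difference of 0.21. The segment of 17 probes at chr24:32785557-32785704 had 1.04, 0.33 and 1.44 in the SF bulls, against -0.36, 0.86 and -1.05 in the HF bulls, also overlapping, at a difference of 1.12.

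**Figure D5:**
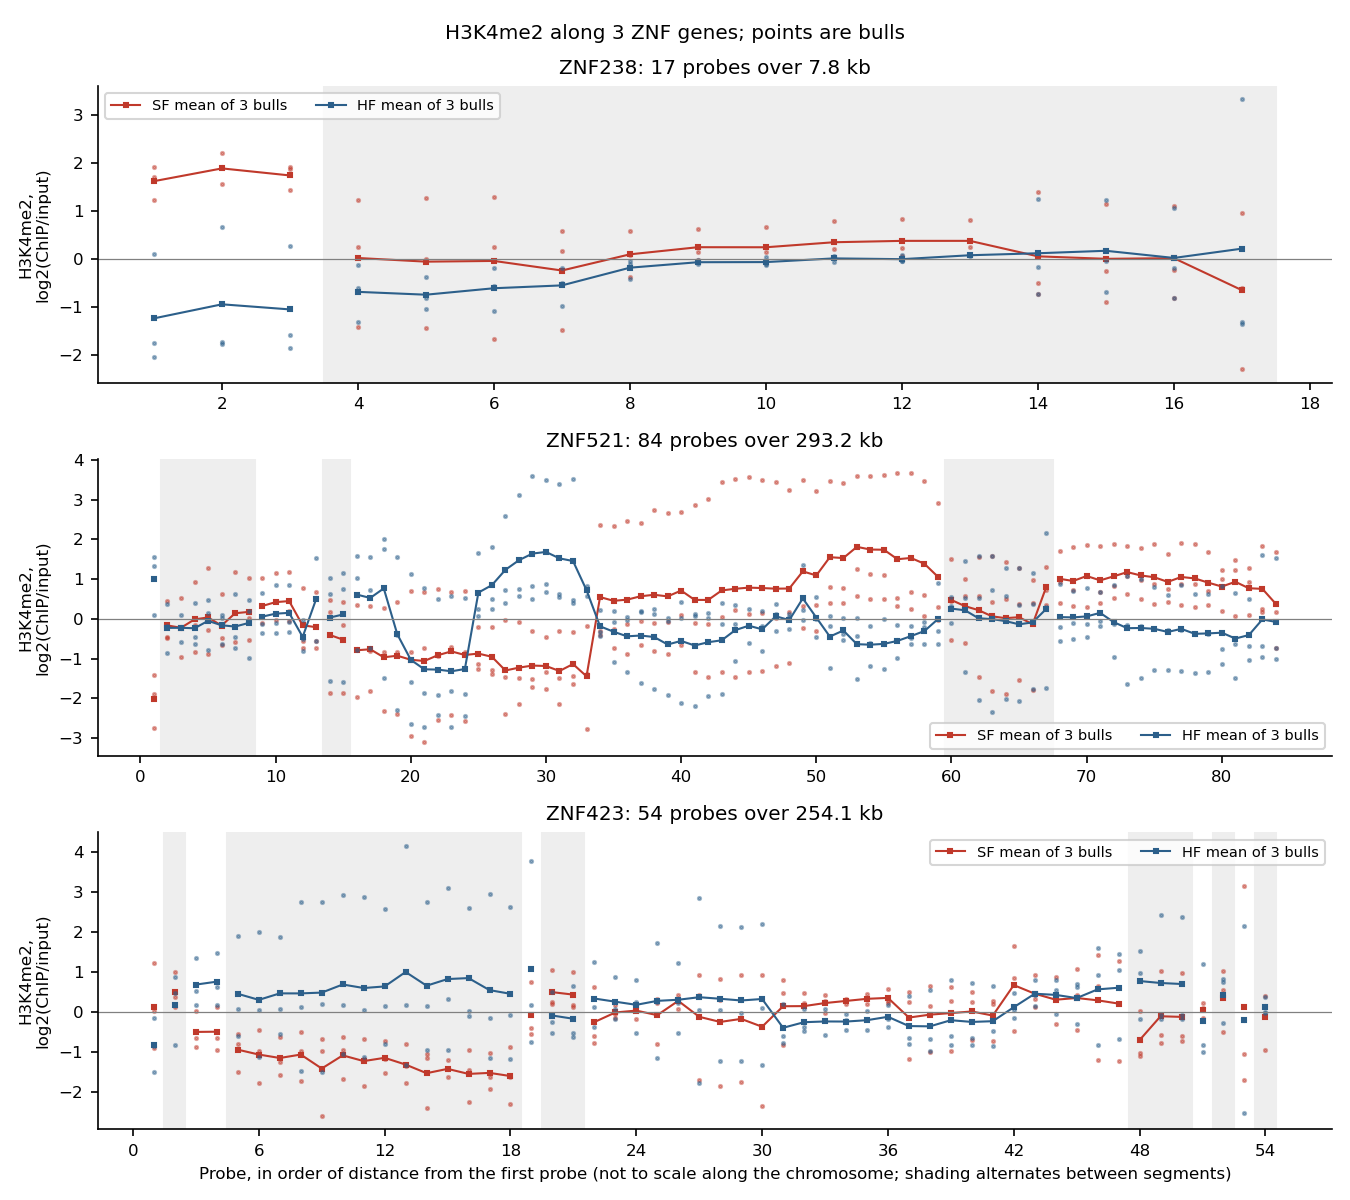
H3K4me2 log2(ChIP/input) along ZNF238, ZNF521 and ZNF423, probes in order from the first (distance not to scale), subfertile (red) and high-fertile (blue); points are bulls, lines with squares are means of 3 bulls and shading alternates between segments. In ZNF238 the groups are apart in the first 3 probes and mixed in the other 14, and in ZNF521 the order of the means changes along the gene.

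The clusters of neighbouring ZNF genes differed in how many members were above 0, SF minus HF, and no cluster was tested. In the cluster of 8 on chromosome 18 that holds ZNF45 and ZNF428, 3 of 8 differences were above 0 in H3K4me2 and 3 in H3K27me3, with medians of -0.15 and -0.33. In the chromosome 18 cluster of ZNF444, ZNF787, ZNF304, ZNF547, ZNF135, ZNF274 and ZNF8, 3 of 7 were above 0 in H3K4me2 and 1 in H3K27me3. On chromosome 25, the differences of ZNF205, ZNF200 and ZNF263 were below 0 in H3K4me2 for 3 of 3 and above 0 in H3K27me3 for 3 of 3, at medians of -0.13 and 0.11, and their groups overlapped. In the chromosome 25 cluster of ZNF48, ZNF771, ZNF688, ZNF689, ZNF629 and ZNF668, 3 of 6 were above 0 in H3K4me2 and 1 in H3K27me3. On chromosome 4, 4 of the 5 genes ZNF398, ZNF777, ZNF746, ZNF862 and ZNF775 were above 0 in H3K4me2 and 3 in H3K27me3. The remaining clusters, both on chromosome 18, had 2 of 4 (ZNF382, ZNF527, ZNF570 and ZNF420) and 2 of 3 (ZNF784, ZNF524 and ZNF628) above 0 in H3K4me2, and 3 and 1 in H3K27me3.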

How the data were processed

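The authors made the deposited spot intensities of both colours in Agilent Feature Extraction 10.7, per the submitters' processing notes (10.7.3.1 per the file headers), which also subtracted background and normalized the dyes, per the file headers. The flags are 0 or 1 per spot. The deposited value table holds log2 ratios whose correction by the authors is not given in the sources used here. Its column medians ran from -0.13 to 0.1, and its columns correlated with unadjusted ratios at r = 0.74 to 0.995. With ratios after within-array loess they correlated at r = 0.983 to 0.996, so the deposited values are close to that setting.

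Here log2(processed Cy5/processed Cy3) was centred on each array's median. Control spots (3440) were left out, outlier spots set missing, saturated spots kept, and 177372 of 177440 probes kept, those with an input above background on 6 or more of the 12 arrays. Among member probes 36 sequences occur on more than 1 spot, always within 1 gene. Genes were tested with limma 3.58.1 in R 4.3.3, with Benjamini-Hochberg adjustment over 6805 genes, after tests on simulated data. Positions are those of the array design on Btau_3.1. Of 97 members 76 matched a buffalo RefSeq symbol; names are those of the array.

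Named genes were those whose groups did not overlap, by difference (at most 8 per direction, 3 for the input), those with 1 sign of the mark difference in all bulls, the 5 highest and lowest mean levels, the 3 smallest interaction p, the 6 with the most probes, members of role lists, and 2 KRAB partners per mark. The member on more than 1 chromosome was left out of this rule. Domain classes come from general knowledge of the human proteins. Members, lists and rules were chosen with earlier results of these data known. The marks are paired by animal, per the labels; the inputs on both arrays of a bull deviated together (r = 0.95 to 0.98, against at most 0.19 between bulls), where animal, DNA preparation and slide cannot be told apart. The labels do not say whether a bull is 1 ejaculate. The number of arrays limits the precision.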

Additional observations from a re-analysis of the deposited data

Results flagged for a closer look

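For ZNF521, H3K4me2 minus H3K27me3 was above 0 in every subfertile bull and below 0 in every high-fertile bull. It was 0.24, 0.28 and 0.86 in SF1, SF4 and SF5, against -0.07, -0.07 and -0.26 in HF2, HF3 and HF5. The difference between the groups was 0.59 log2 units and did not pass limma's interaction test (unadjusted p = 0.256, adjusted p = 1.00). That test took the 12 arrays as independent and did not pair the marks of a bull, so its p does not measure the spread of these within-bull differences. With the bull as a block, ZNF521 was not among the ZNF genes with an unadjusted interaction p under 0.05. Bulls of the groups were apart in this measure for 8 of 97 ZNF genes (8.25%), against 9.32% of all genes.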

How the results depend on the processing

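The count of ZNF genes passing the adjusted test between SF and HF bulls stayed at 0 for both marks under every alternative run: within-array loess, the deposited value table, normexp background, no brightness filter, medians over probes, removal of the G+C line, the ChIP signal alone, each bull left out, and HF5 and SF5 left out together (the last chosen after seeing the data). It also stayed at 0 for the marks and their interaction, with the bull as a replicate block too (0 in both), although the block raised the number of unadjusted p under 0.05 over all genes to 279, against 41 without it, for the marks and to 268, against 45, for the interaction. The ChIP signal alone keeps a probe's own brightness by construction. There 47 of 97 ZNF genes passed the test of the mean H3K4me2 level against the array median, and 3704 of all 6805 genes did. For H3K27me3 56 of 97 ZNF genes passed, and 3778 of all 6805 genes. The median H3K4me2 difference was -0.10 in the deposited value table and 0.11 in the ChIP signal alone. The median H3K27me3 difference was 0.016 in the ChIP signal alone, 0.14 within the slide of SF1 and HF5, and between -0.20 (without SF5) and -0.031 (without HF3) with 1 bull left out. Causes were not tested.

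In the ChIP signal alone 10 values of single genes changed sign. They were the ZNF677 H3K4me2 difference (0.014), the ZNF45 H3K27me3 difference (-0.046), the mean H3K4me2 levels of ZNF8 (-0.70), ZNF330 (-0.97), ZNF35 (-0.15) and ZNF382 (0.27), and the mean H3K27me3 levels of ZNF8 (-0.88), ZNF821 (-0.30), ZNF438 (-0.75) and ZNF35 (-0.19). Genes whose groups do not overlap numbered 5 to 8 for either mark across processing settings. With 1 bull left out they numbered 13 to 18 for H3K4me2 and 12 to 17 for H3K27me3, and without HF5 and SF5 32 and 29, since fewer bulls are apart more easily. Beyond the main setting the shares over all genes were not counted, so these counts give no comparison with the whole array.

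No paired analysis was possible for the fertility comparison because SF and HF bulls share only the number 5, which marks different animals. Slide as a random block could not be fitted, since 1 slide alone holds more than 1 bull. The design has 3 bulls per group, no dye swap, cattle probes and 15 members on 2 probes.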

Other observations

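ZNF575, ZNF668 and ZNF787, which are among the members with the most probes, stayed close to the array median or differed between single bulls. ZNF575, with 93 probes, had H3K4me2 ratios of -0.50, -0.85 and 0.30 in SF1, SF4 and SF5, against 0.02, 0.47 and -0.18 in HF2, HF3 and HF5, and its groups overlapped. ZNF668, a gene of the DNA damage response with 62 probes, had 1.26, 0.69 and -1.07 in the SF bulls, against -0.27, -0.14 and -0.37 in the HF bulls. The SF bulls lay on both sides of the HF bulls there. ZNF787, with 51 probes, had -0.76, 0.02 and -0.45 in the SF bulls, against -0.28, 0.01 and -0.05 in the HF bulls. ZNF462, a member with 10 probes, takes part in chromatin regulation during development. Its H3K4me2 ratio was 0.34, -0.47 and 0.16 in the SF bulls, against -0.13, -0.29 and -0.69 in the HF bulls.

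ZNF500 and ZNF24 varied widely between bulls. ZNF500, a SCAN gene, had H3K4me2 ratios of -1.28, 2.15 and 0.38 in the SF bulls, against -0.64, -1.07 and -2.11 in the HF bulls, and its log2 input in SF4 was -2.27, the lowest of the 6 bulls for that gene. ZNF24 had H3K27me3 ratios of 0.14, 0.60 and -1.51 in the SF bulls, against 1.41, -0.63 and 1.50 in the HF bulls. Near 6 members probes of another symbol lie within 500 bases: ZNF514 beside ZNF2 and the reverse, IRGQ beside ZNF576, NAT14 beside ZNF628, FIZ1 beside ZNF524 and CCT6B beside ZNF830, so a signal there cannot be told apart from that of the neighbour.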
